A study of Mus musculus with 9 samples.

Results

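The core pluripotency factors were described by the transcripts of 4 genes, Pou5f1 (which encodes Oct4), Sox2, Nanog and Sall4, chosen by name from the 48640 rows of a mouse RNA-seq table. Each name stood on 1 row. Oct4 is a POU-domain factor and Sox2 an HMG-box factor. In mouse pluripotent cells they bind DNA together at joint elements in which a SOX site lies beside an octamer, and such elements lie near their own genes and Nanog. Nanog is a homeodomain factor that holds embryonic stem cells in self-renewal. Sall4 is a zinc finger factor that maintains Pou5f1 transcription and recruits the NuRD co-repressor complex.

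The 9 libraries came from colonies that emerged when mouse embryonic fibroblasts were reprogrammed, 3 libraries for each of 3 kinds of colony, after 75 days of culture. All fibroblasts had been transduced by lentivirus, and all reprogramming cultures had received 1 ug/mL doxycycline in ES cell medium. The control iPSCs (induced pluripotent stem cells) were Oct4:GFP+ and came from cultures given an empty vector. The YAP-culture iPSCs derived from cultures with a Yes-associated protein vector (YAP is the co-activator that the Hippo pathway restrains). Their genotype label was Oct4:GFP+YAPmCherry+, whereas their titles say that YAP overexpression was lost, and which of these holds was not settled. The YAP colonies were YAPmCherry+ and non-pluripotent by label. They stayed on feeder cells with 1 ug/mL doxycycline, while the protocol names no doxycycline for established iPSCs, which also grew on feeders. Doxycycline and colony type therefore cannot be told apart in any comparison with the colonies. The culture's vector differs as well in the comparison with the control iPSCs, and it is shared in the comparison with the YAP-culture iPSCs. The labels name no reprogramming factors. Such doxycycline systems commonly carry coding sequences of Oct4, Sox2, Klf4 and Myc, and reads of a transgene would fall on the rows of these genes, a share that was not tested. Nothing in the labels makes the replicates separate cultures, and p-values then reflect only how far these libraries differ, possibly for technical reasons. In bulk RNA, fewer cells of a type and less RNA per cell cannot be told apart.

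Values were FPKM (fragments per kilobase of transcript, normalised to library size), which can be compared between genes. They summed to between 509321 and 634471 per library, and read depth is unknown. A few iPSC libraries stood apart. Control iPSC replicate 3 held 2.92% of its FPKM in ribosomal RNA rows, against at most 0.48% elsewhere. YAP-culture iPSC replicate 3 correlated at 0.969 (Pearson, log2 values over the 13808 tested rows) with control iPSC replicate 2, against 0.944 and 0.934 with its own group. YAP-culture iPSC replicate 2 held 50.83% of its FPKM in pseudogene rows (37.54% to 42.71% elsewhere) and had the fewest rows above 0, at 19006. Without it, the factors kept their calls, and the log2 fold change of Pou5f1 in the colonies against the YAP-culture iPSCs was 0.81. The label of the colonies was checked with 10 other pluripotency markers. Their summed level was 4530 to 5684 FPKM in the control iPSCs, 5558 to 6390 in the YAP-culture iPSCs and 7.07 to 12.3 in the colonies, where Dppa3 was listed at 0 in all 3 libraries. Dppa5a made up most of the iPSC sums.

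The upstream sequences of 3 of the 4 factors are shown because they bear on how these genes are wired to one another. They are the 250 bases before a RefSeq transcription start (GRCm38.p6, plus strand, 5′ to 3′), and capitals mark motif matches. The Nanog window was chr6:122707239-122707488, the Sox2 window chr3:34649745-34649994, and the Pou5f1 window chr17:35505782-35506031.
Nanog: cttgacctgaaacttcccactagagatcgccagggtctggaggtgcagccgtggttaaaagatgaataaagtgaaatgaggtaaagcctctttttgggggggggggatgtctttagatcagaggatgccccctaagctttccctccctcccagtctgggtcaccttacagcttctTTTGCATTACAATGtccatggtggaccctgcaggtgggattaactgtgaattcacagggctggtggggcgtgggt
Sox2: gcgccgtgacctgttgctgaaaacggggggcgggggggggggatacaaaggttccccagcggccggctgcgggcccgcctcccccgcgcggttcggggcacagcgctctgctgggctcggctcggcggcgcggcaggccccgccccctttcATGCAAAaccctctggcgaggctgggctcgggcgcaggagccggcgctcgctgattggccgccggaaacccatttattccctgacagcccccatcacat
Pou5f1: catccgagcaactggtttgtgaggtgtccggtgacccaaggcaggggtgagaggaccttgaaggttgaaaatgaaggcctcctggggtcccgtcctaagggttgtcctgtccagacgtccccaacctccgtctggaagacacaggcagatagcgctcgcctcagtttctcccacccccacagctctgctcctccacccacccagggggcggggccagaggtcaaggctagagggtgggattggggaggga
The motifs searched on both strands were ATGCAAA (the octamer core), ACAATG (a SOX core), GGAATG (the core bound by TEAD factors, the DNA-binding partners of YAP) and the joint element. The joint element is CATTGT, any 1 base, then ATGCAAA, so each match also counts as a SOX core and an octamer core. The Nanog window held the joint element on the opposite strand, 75 to 62 bases upstream of the start. Among the 32851 promoter windows of the RefSeq table only 2 held it, and both were overlapping windows of Nanog. The Sox2 window held an octamer core 99 to 93 bases upstream, a match found in 4.12% of all windows, and its RefSeq start lies upstream of the start of the deposited row. The Pou5f1 window held none of these motifs, and the shares of all windows with a SOX core and a TEAD core were 10.7% and 12.6%. A second RefSeq start of Pou5f1 had a SOX core 158 to 153 bases upstream. A match is a description of the letters and not evidence of binding, and a window without one says nothing of the factor.

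Pou5f1 was the one factor whose transcript was not lower in the colonies. Pou5f1 (ENSMUSG00000024406, chromosome 17, 35506018 to 35510772, mm10, plus strand) has 6 annotated transcripts. The control iPSC libraries had 226, 198 and 185 FPKM, the YAP-culture iPSC libraries 119, 134 and 213, and the colonies 280, 267 and 295. All 3 colonies stood above all 6 iPSC libraries, and YAP-culture iPSC replicate 3 stood with the control iPSCs rather than with replicates 1 and 2. Group means were 203 ± 21.4, 156 ± 50.6 and 281 ± 13.9 FPKM (SD, n = 3 each). The colonies exceeded the YAP-culture iPSCs by 0.89 on the log2 scale of FPKM + 1 (SE 0.20, limma adjusted p = 0.00447), a 1.81-fold ratio of means. A call needed an adjusted p below 0.05 together with a log2 fold change of 1 or more in size, so this difference passed the p threshold but not the fold threshold. Without YAP-culture iPSC replicate 3 it was 1.14 (limma adjusted p = 6.61e-05) and was called, and after a correction for GC content it was 0.65. Against the control iPSCs the difference was 0.47 (limma adjusted p = 0.0708) and was not called.

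Sox2 transcripts fell in the colonies. Sox2 (ENSMUSG00000074637, chromosome 3, 34650405 to 34652461, plus strand) is a gene of 1 exon. The control iPSCs had 157, 172 and 167 FPKM, the YAP-culture iPSCs 154, 160 and 122.8, and the colonies 20.98, 35.2 and 44.9. The colonies lay below every iPSC library and differed among themselves, with replicate 1 lowest. Means were 166 ± 7.61, 146 ± 19.9 and 33.7 ± 12.03 FPKM (SD, n = 3 each). Sox2 was 4.32-fold lower than in the YAP-culture iPSCs (log2 fold change -2.13, SE 0.24, limma adjusted p = 7.52e-05) and 4.92-fold lower than in the control iPSCs (-2.33, limma adjusted p = 4.19e-05).

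The long noncoding transcript that surrounds Sox2 went the other way. Sox2ot (chromosome 3, 34104270 to 34682619, plus strand) has 18 annotated transcripts, of which 9 span Sox2 on the same strand, with 0 exons that overlap it. It was at 0.981, 0.659 and 0.733 FPKM in the control iPSCs, at 0.644, 0.358 and 0.734 in the YAP-culture iPSCs and at 9.72, 10.2 and 10.2 in the colonies. The colonies were thus tightly grouped and far above both iPSC groups. The row reached the mean of 1 FPKM needed for testing only through the colonies. Sox2ot rose by 2.81 against the YAP-culture iPSCs (limma adjusted p = 2.99e-07) and by 2.63 against the control iPSCs (limma adjusted p = 4.2e-07), on the log2 scale. Unspliced Sox2ot reads inside Sox2 would add to the Sox2 row, and their share was not tested.

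Nanog transcripts also fell, by less than Sox2 or Sall4 in these estimates. Nanog (ENSMUSG00000012396, chromosome 6, 122707489 to 122714633, plus strand) was at 390, 400 and 366 FPKM in the control iPSCs, at 326, 305 and 292 in the YAP-culture iPSCs and at 125, 114 and 158 in the colonies. The 3 groups did not overlap, with the control iPSCs highest and the colonies lowest. Means were 386 ± 17.5, 308 ± 17.4 and 132 ± 22.6 FPKM (SD, n = 3 each). Nanog was 2.33-fold lower in the colonies than in the YAP-culture iPSCs (log2 fold change -1.22, SE 0.13, limma adjusted p = 4.75e-05) and 2.91-fold lower than in the control iPSCs (-1.55, limma adjusted p = 1.02e-05). Nanog pseudogene rows were low, with Nanog-ps1 at no more than 1.68 FPKM and Nanog-ps2 listed at 0 in every library.

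Sall4 had the largest difference of the 4 factors. Sall4 (ENSMUSG00000027547, chromosome 2, 168748332 to 168767943, minus strand) was at 46.2, 39.0 and 36.6 FPKM in the control iPSCs, at 40.6, 39.8 and 38.2 in the YAP-culture iPSCs and at 4.22, 3.91 and 3.56 in the colonies. The iPSC groups overlapped, and each colony lay far below them, at 9.01% to 10.7% of the YAP-culture iPSC mean. Means were 40.6 ± 5.0, 39.5 ± 1.24 and 3.898 ± 0.330 FPKM (SD, n = 3 each). Sall4 was 10.1-fold lower than in the YAP-culture iPSCs (log2 fold change -3.05, SE 0.11, limma adjusted p = 6.54e-08) and 10.4-fold lower than in the control iPSCs (-3.08, limma adjusted p = 6.06e-08).

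**Figure D1:**
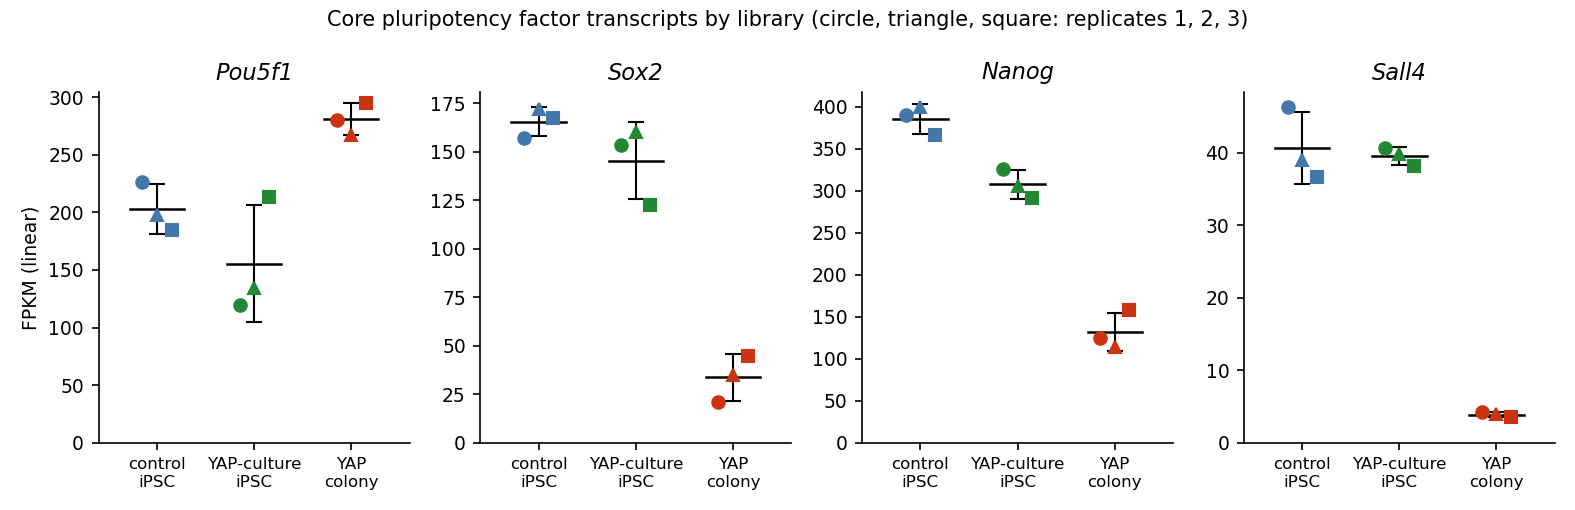
FPKM of each factor on linear axes that start at 0, 1 symbol per library, with the group mean (line) and SD (bar, n = 3). Pou5f1 was highest in the 3 colonies (267 to 295 FPKM), while Sox2, Nanog and Sall4 were lowest there, Sall4 at 3.56 to 4.22 FPKM.

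Of the 4 factors, 3 were called in the colonies against the YAP-culture iPSCs, all lower. Of all 13808 tested rows, 30.3% were called in that comparison, 15.8% higher and 14.5% lower. Against the control iPSCs the same 3 were called lower, where 31.8% of rows were called, 14.9% higher and 17.0% lower. Both comparisons use the same colonies, and the comparison of the iPSC groups reuses both iPSC groups, so the 3 are not independent.

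The 2 iPSC groups did not differ by the call rule in any factor. Pou5f1 was lower by 0.42 in the YAP-culture iPSCs (95% interval -0.88 to 0.04), Sox2 by 0.19 (-0.75 to 0.36), Nanog by 0.32 (-0.62 to -0.03) and Sall4 by 0.03 (-0.28 to 0.22), all on the log2 scale. The limma adjusted p-values were 0.190, 0.597, 0.138 and 0.859. In this comparison 1.39% of rows were called, 0.507% higher and 0.884% lower. In Nanog all 3 YAP-culture iPSC libraries lay below all 3 controls, and how often these groups fail to overlap over all rows was not counted. The Pou5f1 difference was -0.67 (limma adjusted p = 0.00568) without YAP-culture iPSC replicate 3 and 0.05 after a correction for GC content, so its direction was not stable. The Sall4 direction also turned under 5 alternatives, without reaching an adjusted p below 0.05. The intervals are not adjusted for multiple tests, and that of Nanog lay just below 0.

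**Figure D2:**
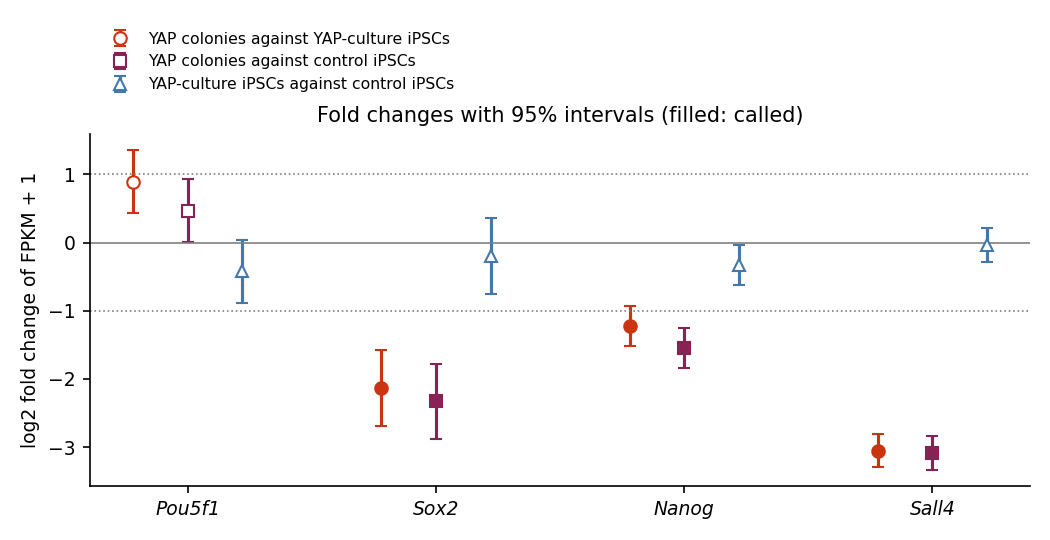
Log2 fold change of FPKM + 1 for each factor in the 3 comparisons, with 95% intervals from limma; filled symbols were called, and dotted lines mark the fold threshold of 1. The filled symbols are Sox2, Nanog and Sall4 in the colonies, from -1.22 to -3.08, and Pou5f1 lies at 0.89 and 0.47.

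The order of the factors within a library changed with colony type. In all 3 control iPSC libraries the order of FPKM was Nanog, Pou5f1, Sox2, Sall4, with no overlap between neighbours across libraries. In the YAP-culture iPSCs Pou5f1 and Sox2 overlapped, and Sox2 exceeded Pou5f1 in replicates 1 and 2 but not in replicate 3. In the colonies the order was Pou5f1, Nanog, Sox2, Sall4, again with no overlap. Among 21739 protein-coding rows, Pou5f1 ranked 93, 126 and 105 from the top in the colonies, whereas Sall4 ranked 8474, 8649 and 8865. In the control iPSCs Pou5f1 had ranked 202, 217 and 224.

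The stoichiometry of transcripts to Pou5f1, as the log2 ratio of FPKM + 1 within a library, asked whether the factors differed by unequal amounts. For Sox2 the ratio was -0.52, -0.20 and -0.14 in the control iPSCs, 0.36, 0.26 and -0.79 in the YAP-culture iPSCs, and -3.68, -2.89 and -2.69 in the colonies. Sox2 and Pou5f1 transcripts were within a 2-fold range of each other in every iPSC library and in none of the colonies. Oct4 and Sox2 bind joint elements as partners, but a link between that binding and these levels was not tested. Against the YAP-culture iPSCs the mean ratio to Pou5f1 differed by -3.03 for Sox2, -2.12 for Nanog and -3.94 for Sall4. Against the control iPSCs the differences were -2.80, -2.02 and -3.55. The groups did not overlap in any of these 6 cases, and each two-sided exact permutation p was 0.1, the smallest that 3 libraries against 3 allow. These 6 cases share the Pou5f1 values and the same colonies, so they restate the fold changes above and are not independent support. How often groups fail to overlap over all genes was not counted. Between the iPSC groups the differences were 0.23, 0.10 and 0.39, with overlapping groups and exact permutation p-values of 0.6, 0.8 and 0.4. No p was adjusted over these 9 ratios, since none could fall below 0.1.

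**Figure D3:**
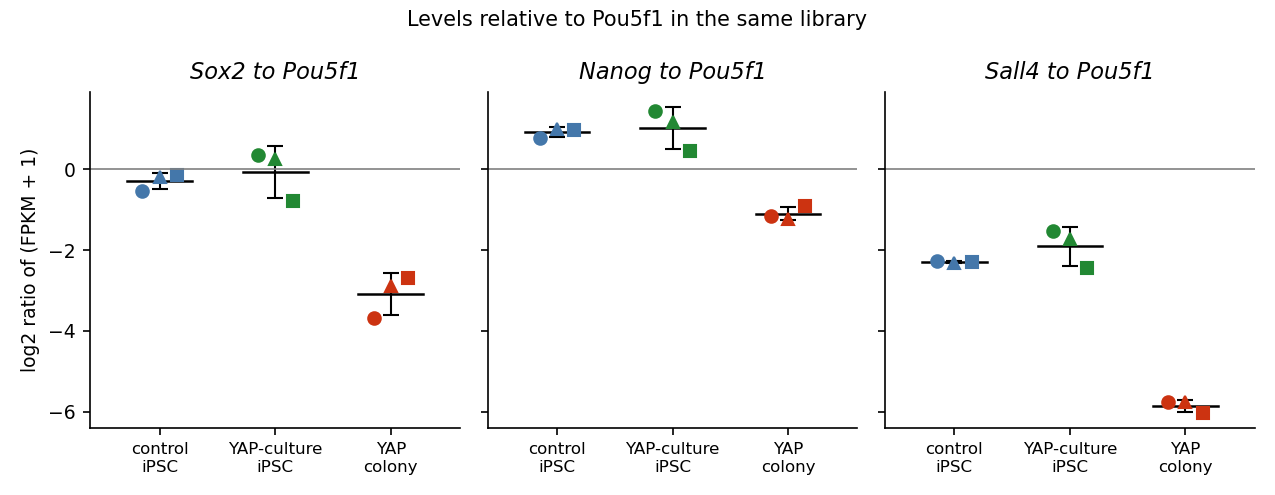
Log2 ratio of Sox2, Nanog and Sall4 to Pou5f1 within each library, with group means and SD (n = 3). The colonies lie below every iPSC library in all 3 panels, at means of -3.09, -1.09 and -5.85.

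Klf4 and Myc, the other factors of common reprogramming cocktails, were read beside Pou5f1 and Sox2. Klf4, a Krüppel-like factor, was at 50.3, 65.6 and 51.5 FPKM in the control iPSCs, 61.6, 86.5 and 73.3 in the YAP-culture iPSCs and 69.4, 88.8 and 110 in the colonies. Its group means were 55.8, 73.8 and 89.6 FPKM in the same order, so the larger difference was against the control iPSCs. It was called in no comparison (log2 fold change 0.26, limma adjusted p = 0.277, colonies against YAP-culture iPSCs). Myc, which drives growth and division, was at 5.96, 5.14 and 5.27 FPKM in the control iPSCs, 15.7, 18.4 and 27.7 in the YAP-culture iPSCs and 336, 413 and 454 in the colonies. Its 3 groups did not overlap, and it rose in all 3 comparisons. The log2 fold changes were 4.25 and 5.95 for the colonies against the YAP-culture and control iPSCs, and 1.71 between the iPSC groups (limma adjusted p = 0.00681). The last call was lost when the colonies were left out of the fit. Among the factors of such cocktails, Sox2 was therefore the one with lower transcript levels in the colonies.

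Genes known from the literature as joint Oct4 and Sox2 targets were lower in the colonies in each case. Their joint elements are background knowledge: of the 6 genes, 4 had windows in the promoter table and none held the element searched here. All 6 on the list (Fgf4, Utf1, Fbxo15, Lefty1, Spp1 and Zscan10) fell against both iPSC groups, with median log2 fold changes of -4.04 and -3.70, beside medians over all tested rows of 0.02 and -0.07. All 6 were called lower in both comparisons, beside 14.5% and 17.0% of all tested rows. Utf1, Zscan10 and Lefty1 had colony means under 1 FPKM and reached the mean needed for testing only through the iPSCs. The direction of their calls was therefore set in part by that requirement. Fgf4, the growth factor that drives ERK signalling in pluripotent cells, was at 61.8, 60.4 and 55.0 FPKM in the control iPSCs, 57.6, 59.8 and 58.5 in the YAP-culture iPSCs and 3.23, 6.30 and 6.30 in the colonies. It was 11.1-fold lower than in the YAP-culture iPSCs (limma adjusted p = 1.42e-06). The iPSC groups overlapped almost entirely in Fgf4.

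Utf1, a chromatin-bound factor of undifferentiated cells, was at 91.5, 67.3 and 75.9 FPKM in the control iPSCs and at 23.1, 18.0 and 70.3 in the YAP-culture iPSCs, where replicate 3 again stood with the controls. In the colonies it was at 0.188 and 0.114 FPKM and listed at 0 in replicate 3. Spp1, which encodes osteopontin, was the most abundant gene of the list at 477 to 634 FPKM in the control iPSCs and 761 to 1080 in the YAP-culture iPSCs, and stood at 41.8, 43.7 and 46.0 in the colonies. Fbxo15, an F-box gene used as a reprogramming reporter, fell from 122 to 2.58 FPKM between the means of the YAP-culture iPSCs and the colonies, a 47.2-fold difference. Zscan10, a zinc finger factor of pluripotent cells, was 38.2-fold lower in the same comparison.

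Lefty1, a Nodal inhibitor, had the smallest log2 fold change of the 6 in both comparisons with the colonies, although against the control iPSCs the ratio of means was smaller for Fgf4 (11.2-fold against 12.5-fold). It was at 12.4, 7.16 and 8.52 FPKM in the control iPSCs, 2.09, 2.29 and 4.34 in the YAP-culture iPSCs and 0.729, 0.803 and 0.712 in the colonies, with no overlap between groups. It was the only one of the 6 called between the iPSC groups (log2 fold change -1.42, limma adjusted p = 0.0234). That call was lost without control replicate 1 or 3 or YAP-culture iPSC replicate 1 or 2 (adjusted p from 0.0699 to 0.0951). The call in the colonies against the YAP-culture iPSCs was lost without YAP-culture iPSC replicate 3 (-0.87). The other 5 calls in that comparison held without each library in turn.

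**Figure D4:**
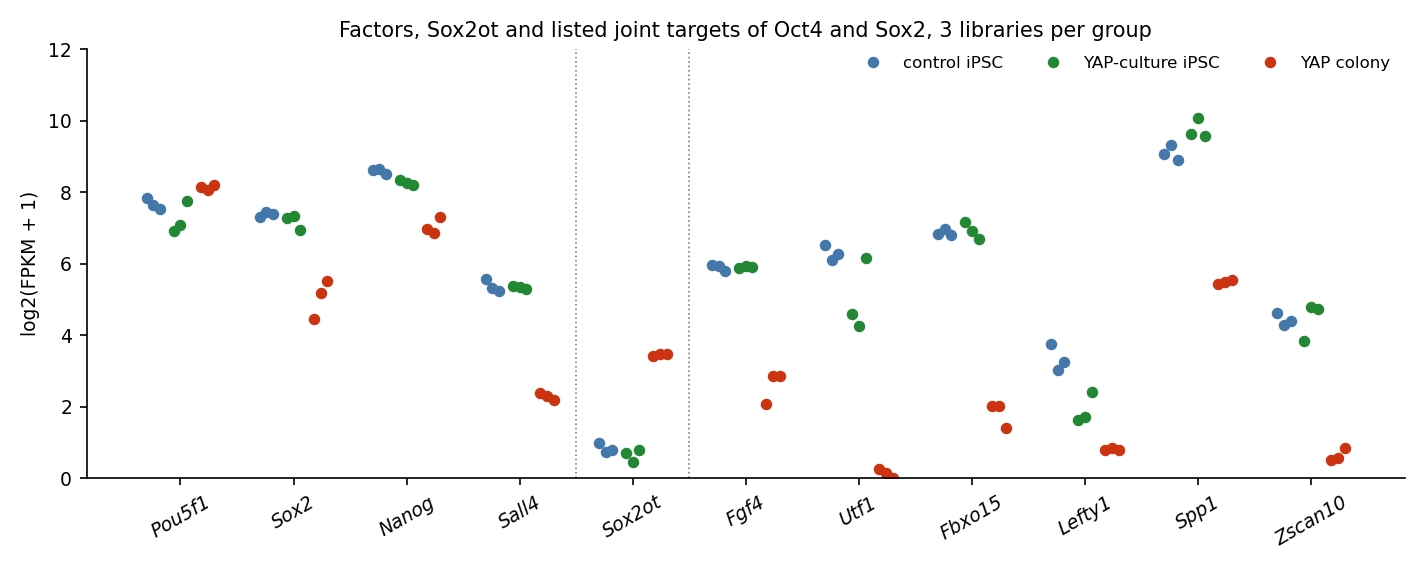
log2(FPKM + 1) in each library for the 4 factors, Sox2ot and the 6 listed joint targets of Oct4 and Sox2, 3 points per group. Sox2ot is the only gene beside Pou5f1 with the colonies highest, and the 6 targets all have their colony points below their iPSC points.

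Nanog, Sox2 and Sall4 kept a larger percentage of their iPSC level in the colonies than most target and marker genes. The 6 targets and the 10 pluripotency markers hold 14 distinct genes. The colony mean of Nanog was 43.0% of its YAP-culture iPSC mean and that of Sox2 was 23.2%, whereas the 10 markers summed to 0.169% of theirs. All 14 genes had a smaller percentage than Nanog, and 13 of the 14 a smaller one than Sox2 (23.2%) or Sall4 (9.86%), Lefty1 being the exception at 25.7%. Against the control iPSCs all 14 lay below all 4 factors by colony means, but single colonies did not separate Sall4 from Fgf4. The colony mean was 9.59% for Sall4 (8.76% to 10.4% by library) and 8.93% for Fgf4 (5.46% to 10.7%). Among the markers, the colony mean of Esrrb was 0.258% of its YAP-culture iPSC mean, that of Zfp42 0.126% and that of Dppa5a 0.0881%. Dppa5a, with a YAP-culture iPSC mean of 4660 FPKM, made up most of the summed marker level there. Some other markers kept more, with Tbx3 at 4.91%, Fbxo15 at 2.12% and Klf2 at 1.94%.

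Relatives of the factors were called in both directions, and their counts, over few tested genes, stand beside the 15.8% higher and 14.5% lower of all rows against the YAP-culture iPSCs and the 14.9% and 17.0% against the control iPSCs. Of 19 other SOX genes 6 passed the expression filter (mean of 1 FPKM or more across the 9 libraries). Against the YAP-culture iPSCs 4 rose (Sox4, Sox11, Sox12 and Sox13) and Sox15 fell. Sox11, a SOX factor of neural precursors, was at 2.75 to 3.89 FPKM in the 6 iPSC libraries and at 27.3, 27.7 and 29.96 in the colonies (log2 fold change 2.62, limma adjusted p = 4.36e-08). Sox15, which can partner Oct4 in mouse embryonic stem cells, was at 48.5, 39.8 and 38.9 FPKM in the control iPSCs, 17.3, 17.0 and 35.6 in the YAP-culture iPSCs and listed at 0 in all 3 colonies. Against the control iPSCs Sox4, Sox11 and Sox13 rose and Sox15 fell.

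Of 14 other POU genes 4 passed the filter, and Pou6f1 rose against both iPSC groups, from 0.818 to 1.77 FPKM in the iPSC libraries to 31.1, 30.6 and 35.0 in the colonies (log2 fold change 3.74, limma adjusted p = 3.22e-08, against the YAP-culture iPSCs). Pou2f3, a factor of tuft and other epithelial cells, fell against the YAP-culture iPSCs (log2 fold change -1.72) and was at -0.98, not called, against the controls. Of the other SALL genes, Sall2 and Sall3 rose against both iPSC groups and Sall1 fell against the control iPSCs. Sall3 passed the filter only through the colonies, and Sall2 lay near the filter in the iPSCs. Sall2 was at 1.42, 1.01 and 1.10 FPKM in the control iPSCs, 0.783, 0.763 and 0.782 in the YAP-culture iPSCs and 10.2, 9.72 and 11.6 in the colonies. Sall1 was at 28.4, 26.3 and 22.8, then 13.03, 15.1 and 19.4, then 10.4, 10.3 and 10.3 FPKM in the same order. Sall4 was thus the highest SALL gene in FPKM in every iPSC library, and lay below Sall1 and Sall2 in every colony.

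Counts of partner proteins stand beside the 30.3% and 31.8% of all rows called against the YAP-culture and control iPSCs, and nothing particular to the partners is read from them. Of 11 NuRD subunits Mta3 fell against both iPSC groups (log2 fold changes -1.48 and -2.04) and Mta1 rose against the YAP-culture iPSCs (1.69). The other 9 subunits were called in neither comparison. The median over the 11 was -0.03 beside 0.02 over all rows. Mta1 was at 29.98, 24.3 and 25.6 FPKM in the control iPSCs, 13.9, 11.1 and 22.8 in the YAP-culture iPSCs and 38.8, 55.0 and 63.4 in the colonies, and Mta3 at 77.1, 61.4 and 73.2, then 49.2, 33.1 and 66.0, then 13.5, 19.1 and 17.0. Mta1 was not called against the control iPSCs (0.93), and Mta2, the third MTA gene, was called in neither comparison (-0.03 and -0.13). Of 9 other proteins found with Oct4 or Nanog in mouse embryonic stem cells, Esrrb, Nr0b1 and Rif1 fell against the YAP-culture iPSCs and Esrrb and Nr0b1 against the controls, and the other 6 (Ctbp2, Nacc1, Trim28, Wdr5, Zfp143 and Zfp281) were called in neither comparison. Esrrb, an orphan nuclear receptor, went from 88.2 to 121 FPKM in the iPSC libraries to 0.278, 0.298 and 0.191 in the colonies. Rif1 fell just short of the fold threshold without YAP-culture iPSC replicate 1 (limma adjusted p = 0.000463).

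Of 8 known repressors of the factors 5 passed the filter, and 1 rose and 1 fell in each comparison with the colonies, too few to set against the 30.3% and 31.8% of all rows called. Nr2f2, a nuclear receptor that represses Pou5f1 in differentiating cells, was at or below 0.199 FPKM in the iPSC libraries and at 8.74, 6.65 and 6.69 in the colonies, and rose by 2.93 and 2.98 on the log2 scale. Nr6a1, the germ cell nuclear factor, which represses Pou5f1 in the embryo, was at 8.80 to 12.02 FPKM in the iPSC libraries and at 0.945, 0.641 and 0.696 in the colonies, and fell by 2.73 and 2.70. Nr2f2 passed the filter only through the colonies and Nr6a1 only through the iPSCs, so the direction of each call was set in part by the filter. A link between these repressors and the Pou5f1 row, which may hold transgene reads, was not tested. Tcf7l1, Trp53 and Ehmt2 were not called.

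The rows around the 4 factors were called in both directions. Taking the 3 nearest rows on each side that passed the filter, 5 of 24 rose and 6 fell against the YAP-culture iPSCs, and 4 rose and 5 fell against the control iPSCs. Over all rows 15.8% rose and 14.5% fell in the first comparison, and 14.9% and 17.0% in the second, so with 24 rows nothing particular to these neighbourhoods is read from the counts. Beside Nanog, Dppa3 (77.2 kb away), a maternal and germline factor, was listed at 0 in all colonies, while Slc2a3 (13.2 kb away), a glucose transporter, differed by -0.10 and 0.02 and was not called. Beside Sall4, Nfatc2, which passed the filter only through the colonies, rose by 2.31 and 2.39, and the nearest gene, Atp9a at 5.9 kb, was not called. Tshz2, on the other side of Sall4, also passed only through the colonies and rose (2.28 and 2.28), while Gm9873 fell (-2.30 and -1.94). Beside Sox2, Gm9791 rose (2.65 and 2.10) and Gm38509 fell (-1.94 and -2.60). Gm9873 and Gm38509 passed the filter only through the iPSCs. Beside Pou5f1, Tcf19 at 2.0 kb was not called (0.95 and 0.19), and H2-Q7, which is one of several similar class I genes, fell by 1.06 and 1.41. Psors1c2 also fell (-1.30 and -2.29). H2-Q7 and Psors1c2 passed the filter only through the iPSCs. H2-Q7 lost its call against the YAP-culture iPSCs without YAP-culture iPSC replicate 3 (-0.77), and Fxr1, beside Sox2, lost its call when YAP-culture iPSC replicate 1 (-0.95) was left out, as it did for colony replicate 3 (-0.96).

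**Figure D5:**
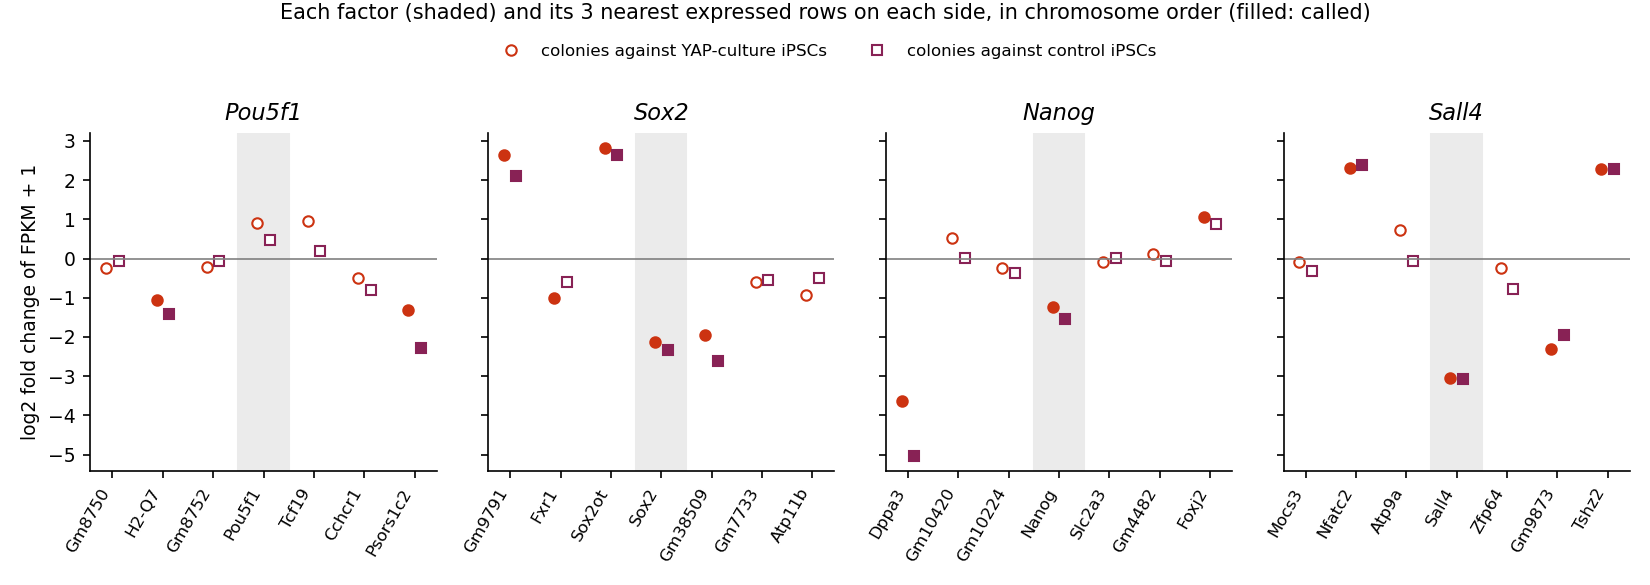
Log2 fold change of FPKM + 1 for each factor (shaded) and its 3 nearest expressed rows on each side, in chromosome order and not to distance; filled symbols were called. Sox2 and Sox2ot lie on opposite sides of 0, as do Sall4 and Nfatc2. Gm38509 lies on the same side as Sox2, and Gm9873 on the same side as Sall4.

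The genes with the most similar patterns were found by the smallest root mean square difference of centred log2(FPKM + 1) over the 9 libraries. For Sall4 they were Iqcg (0.085), Dnajc6 (0.102) and Nr5a2 (0.132), the last a nuclear receptor that binds the Pou5f1 promoter. Nr5a2 went from 11.01 to 15.3 FPKM in the iPSC libraries to 0.649, 0.551 and 0.495 in the colonies. For Nanog they were Snrpn and Apobec2 (0.125 each) and Maats1 (0.127). Likeness on this scale is not likeness in fold for genes of low FPKM. Against the YAP-culture iPSCs, Sall4 was 10.1-fold lower in the colonies, Nr5a2 21.3-fold and Dnajc6 56.9-fold, and Iqcg was listed at 0. In the same comparison Nanog was 2.33-fold lower, Snrpn 2.22-fold, Apobec2 14.4-fold and Maats1 45.85-fold. For Sox2 the nearest were farther, Apobec3 (0.189), Msh6 (0.203) and Orc1 (0.238), and for Pou5f1 they were Wdr81 (0.078), Dmpk (0.093) and Slc8b1 (0.094).

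Markers of other cell types that use these factors were read beside them. Of all tested rows, 15.8% were called higher and 14.5% lower against the YAP-culture iPSCs, and 14.9% and 17.0% against the control iPSCs. Germ cells use Oct4, Nanog and Sall4, and 6 of 7 germ cell markers were tested and fell. All of those tested except Tfap2c passed the filter only through the iPSCs, so the direction of their calls was set in part by the filter. The 7 summed to 106 to 122 FPKM in the control iPSCs, 55.6 to 69.0 in the YAP-culture iPSCs and 2.34 to 4.56 in the colonies, where Dppa3 was listed at 0. Neural progenitors use Sox2, and 5 of 11 neural markers were tested, of which Map2, Nes, Pax6 and Sox11 rose and Olig2 fell against the YAP-culture iPSCs. Their summed level was 13.96 to 16.5, 13.6 to 14.9 and 83.5 to 106 FPKM in the same order. Pax6, a neural and eye factor, rose from a mean of 0.177 FPKM in the YAP-culture iPSCs to 10.96 in the colonies, and passed the filter only through the colonies. Olig2 passed it only through the iPSCs. The 11 fibroblast markers, which would also mark feeder cells, summed to 5.51 to 7.62, 5.11 to 10.4 and 34.5 to 43.8 FPKM, with 3 of the 11 tested. Thy1, Dcn and Col1a1 rose, of which Dcn and Col1a1 passed the filter only through the colonies. Of the untested members, Pdgfrb had means of 0.931, 0.905 and 0.315 FPKM in the same order and Twist1 0.485, 0.773 and 0.0731, and Twist2 was listed at 0 in the colonies. Of 8 extraembryonic markers Eomes and Tfap2c were tested and fell, Eomes having passed the filter only through the iPSCs. The list summed to 50.2 to 60.8, 20.5 to 27.0 and 2.22 to 4.42 FPKM, with Cdx2, Sox17 and Sox7 listed at 0 in all colonies. Tfap2c, which is also on the germ cell list, made up most of these sums, at means of 50.2, 19.1 and 3.00 FPKM. The part of neural and fibroblast cells in the levels of the 4 factors was not tested.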

How the data were processed

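Trizol-extracted RNA from 3 groups of 3 mouse samples was sequenced with a stranded mRNA kit, per the labels' protocols. The deposited values are FPKM by gene, which the authors made with TopHat and Cufflinks on mm10 per the submitters' processing notes, with versions not given in the sources used here. Columns were assigned to samples through headings and labels. Starts in the table were given 1-based. Limma 3.58.1 (R 4.3.3) was run on log2(FPKM + 1) of 13808 rows (mean of 1 FPKM or more), fitting the 3 group means together with a trended prior and Benjamini-Hochberg adjustment over all rows, two-sided, and was tested on simulated data. Fold changes on this scale understate the change of low genes, and an exact 0 can be a failed estimate. A gene near 0 in some groups passed the filter only through others where it was high. The members, lists and alternatives were chosen with earlier results of these data known. Named genes were the 4 factors, rows named after them, all targets, Klf4, Myc and other SALL genes, the 2 largest calls each way of each other list (or the smallest p), 3 neighbours on each side and the 3 most similar genes without gene-model names. Small counts, and partner proteins not called, are also spelled out by gene, chosen after their values were seen. Promoters came from the RefSeq table (GRCm38.p6). No batch was stated.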

Additional observations from a re-analysis of the deposited data

How the results depend on the processing

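Each result was recomputed with pseudocounts of 0.1 and 5, no filter, a minimum mean of 5 FPKM, median-ratio scaling, quantile normalization, the compared groups alone, a replicate block and each library left out. Chosen after seeing the data were a GC correction, control replicate 3 and YAP-culture iPSC replicate 3 left out together, and protein-coding rows rescaled to equal totals. Across these 17 alternatives per comparison, the colony calls of Sox2, Nanog and Sall4 held, with log2 fold changes from -2.56 to -1.84, -1.68 to -1.12 and -3.35 to -2.32. Pou5f1 against the YAP-culture iPSCs was called with quantile normalization (1.05) and without that pair of libraries (1.14), was 0.65 with the GC correction, and leaving out single libraries gave 0.73 to 1.14. Against the controls it ranged from 0.41 to 0.78 (limma adjusted p from 0.000324 to 0.18). Between the iPSC groups Pou5f1 turned to 0.05 with the GC correction. Sall4 there turned to 0.04 with either scaling, 0.06 with rescaled protein-coding rows and 0.26 with the GC correction, and ranged from -0.10 to 0.06 without single libraries. The ratio of Sall4 to Pou5f1 moved to -3.20 against the YAP-culture iPSCs and to -2.82 against the controls with a pseudocount of 5, and to -3.82 against the controls with one of 0.1. Called rows numbered 4184, 4396 and 192 in the 3 comparisons. They numbered 2108, 2259 and 57 with a pseudocount of 5, and 2421, 2599 and 114 with a minimum of 5 FPKM, where fewer rows were tested. Between the iPSC groups they numbered 36 with the compared groups alone, 1062 without that pair of libraries, and 51 to 1052 without single libraries, the highest without YAP-culture iPSC replicate 3. The cause of the other moves was not tested. Samples sharing a replicate number were not paired by the labels, and their deviations correlated at -0.141 to 0.188; with the replicate block 4184, 4398 and 160 rows were called and no factor changed its call. Depth is unknown, which leaves the precision of low values unstated.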
